A study of Mus musculus with 6 samples.

Results

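The unfolded protein response of the endoplasmic reticulum was followed through 10 genes: Hspa5, Hsp90b1, Calr, Pdia4 and Sdf2l1, which fold proteins in that compartment, Ern1, Atf6 and Xbp1, which sense and relay stress, and Dnajb9 and Herpud1, which act in degradation. They were chosen by gene symbol, and each matched 1 row of the deposited table, so 10 of 54532 genes are described, and all 10 passed the filter on low values. RNA from mouse samples labelled lung was sequenced in 6 libraries, 3 labelled young, from mice aged 3 months, and 3 labelled aged, from mice aged 18 months. No strain, sex, genotype or treatment is named for either group. Nothing in the labels ties the libraries of a group to separate animals. The p-values therefore reflect the spread among these 6 libraries alone, and that spread may be technical. Values are FPKM, fragments scaled by a library size and by gene length. The scaling by length allows a comparison between genes only as far as the lengths used fit the transcripts present.

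The endoplasmic reticulum folds secreted and membrane proteins. When unfolded proteins build up there, they draw the chaperone BiP, the product of Hspa5, away from 3 membrane sensors: IRE1, the product of Ern1, PERK, the product of Eif2ak3, and ATF6. IRE1 cuts an intron out of Xbp1 mRNA so that an active transcription factor is made, ATF6 is released as a transcription factor after cleavage in the Golgi, and PERK phosphorylates eIF2 alpha, which slows translation and favours ATF4 and CHOP. The targets are chaperones, disulfide isomerases and the machinery that takes misfolded proteins out for degradation. In lung, the pathway is known for its work in secretory cells, such as alveolar type 2 cells and plasma cells.

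The contents of the libraries went against the tissue label. Of 16 markers of lung epithelium, endothelium and blood, 14 stayed under 1 FPKM in every library, with Sftpd and Scgb3a2 at 0 in all 6. The exceptions were Hopx at 5.68 to 10.4 FPKM and Cd68 at 5.85 to 16.7 FPKM. All 8 markers of proliferating mesenchymal cells were at or above 10 FPKM in the 6 libraries. Of 11 plasma cell markers, 10 stayed under 1 FPKM in every library, and the other, Sdc1, lay between 67.4 and 75.2 FPKM. Kidney transcripts stood apart in libraries labelled young, where Kap reached 116 FPKM in replicate 1 and 21.9 FPKM in replicate 3 but was listed at 0 in the other 4 libraries. The summed level of 10 kidney markers ran from 0.810 to 136 FPKM in the libraries labelled young, and the part of this RNA in the results was not tested beyond refitting without both libraries. Whole reads recovered from the values summed to 16649061 to 17456715 per library. Each of the 10 genes held between 553 and 38285 reads per library, the fewest for Dnajb9.

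Promoter windows from RefSeq, build GRCm38.p6, covering 250 bases before to 50 bases after an annotated start, were found for 9 of the 10 genes. They were searched on both strands for the endoplasmic reticulum stress element, ERSE, a textbook site of NF-Y and ATF6 made of CCAAT, then 9 bases of any kind, then CCACG. The related ERSE-II, made of ATTGG, 1 base of any kind and CCACG, and the UPRE octamer TGACGTGG were searched too. ERSE contains the NF-Y box CCAAT, and ERSE-II holds the same box in reverse. The 4 windows with an exact ERSE or ERSE-II are shown because 2 of these genes fell and 2 did not pass the test. Each is read 5′ to 3′ on the strand of its gene, with the fixed letters of the matches in capitals.
Hspa5, chr2:34771840-34772139, plus strand: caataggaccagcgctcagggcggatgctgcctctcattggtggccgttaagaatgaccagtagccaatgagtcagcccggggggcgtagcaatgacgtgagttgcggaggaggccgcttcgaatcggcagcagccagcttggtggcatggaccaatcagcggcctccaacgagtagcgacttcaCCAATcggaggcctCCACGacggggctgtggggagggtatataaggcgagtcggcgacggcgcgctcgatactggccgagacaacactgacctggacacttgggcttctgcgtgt
Hsp90b1, chr10:86705395-86705694, minus strand: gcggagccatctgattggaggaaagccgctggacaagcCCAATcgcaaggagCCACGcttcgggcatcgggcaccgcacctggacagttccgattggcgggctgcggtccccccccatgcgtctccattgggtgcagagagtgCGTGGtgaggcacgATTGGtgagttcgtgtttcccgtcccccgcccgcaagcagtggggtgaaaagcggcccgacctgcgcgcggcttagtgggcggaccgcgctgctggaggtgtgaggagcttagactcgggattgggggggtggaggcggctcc
Calr, chr8:84846882-84847181, minus strand: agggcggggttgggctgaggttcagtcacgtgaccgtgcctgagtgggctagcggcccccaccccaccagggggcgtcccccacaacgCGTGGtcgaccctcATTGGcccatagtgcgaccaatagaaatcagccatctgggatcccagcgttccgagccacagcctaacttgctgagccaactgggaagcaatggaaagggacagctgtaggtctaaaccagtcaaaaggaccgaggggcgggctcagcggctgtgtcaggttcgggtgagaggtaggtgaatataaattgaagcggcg
Herpud1, chr8:94386179-94386478, plus strand: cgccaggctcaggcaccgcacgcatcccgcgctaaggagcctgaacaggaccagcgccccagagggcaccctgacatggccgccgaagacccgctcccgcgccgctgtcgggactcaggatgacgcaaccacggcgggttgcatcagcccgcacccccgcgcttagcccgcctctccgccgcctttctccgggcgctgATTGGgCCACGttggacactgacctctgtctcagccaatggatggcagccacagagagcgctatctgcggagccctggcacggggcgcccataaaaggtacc

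The Hspa5 window held 1 exact ERSE, from 65 to 47 bases upstream of the start. Hsp90b1 held 2, from 212 to 194 bases and, on the opposite strand, from 107 to 89 bases upstream. Calr held 1 on the opposite strand, from 162 to 144 bases upstream, and Herpud1 held 1 ERSE-II, from 52 to 42 bases upstream. Among all 32851 windows, 39 (0.119%) held an exact ERSE, 12 (0.0365%) an ERSE-II and 222 (0.676%) the UPRE octamer, which none of the 9 windows held. When 1 of the 10 fixed letters of ERSE was allowed to differ, 494 windows (1.5%) held a match. Among the 9 windows that looser search gave 5, and the gene it added beside those above was Pdia4, from 108 to 90 bases upstream on the opposite strand:
Pdia4 site: aGTGGcagcccgtgATTGG
The windows of Xbp1, Sdf2l1, Dnajb9 and Ern1 held no exact match to the 3 elements and no ERSE with 1 letter changed. For Dnajb9 the window, 44210019 to 44210318, lay wholly inside the gene as annotated for the FPKM values, 44205559 to 44210326. Bases upstream of that annotated gene were therefore not searched. A match describes letters in a window and does not show that a factor binds there.

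**Figure D1:**
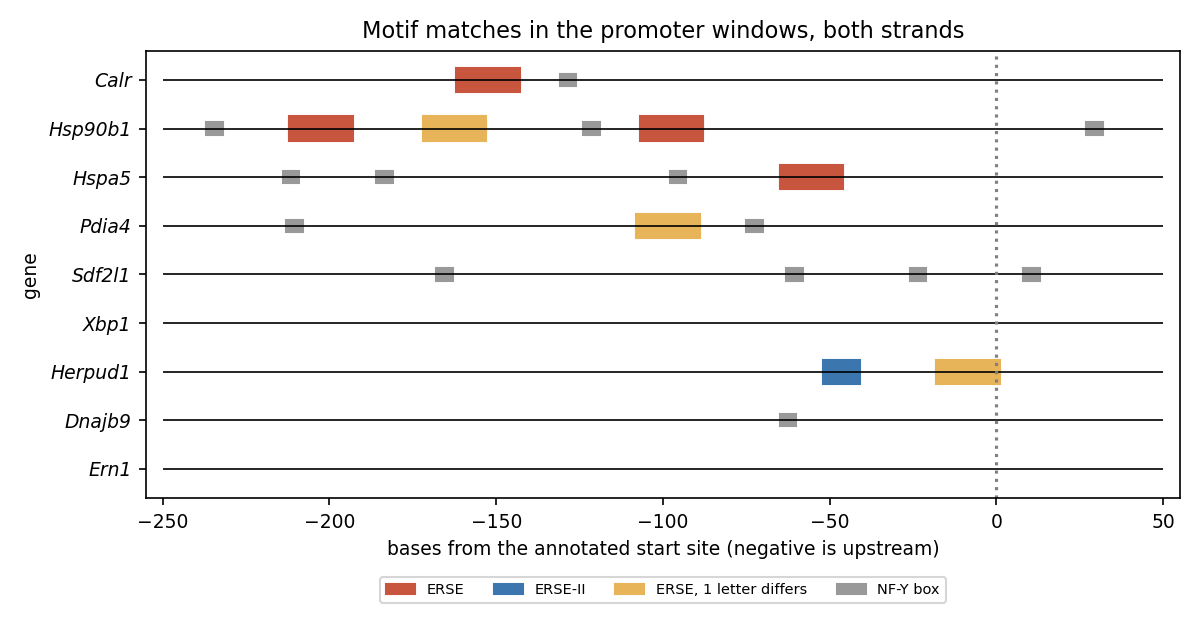
Position of motif matches in the promoter windows of 9 genes, with bases from the annotated start site on the x axis and 1 line per gene. Red boxes are exact ERSE matches, blue ERSE-II, yellow ERSE with 1 letter changed and grey the NF-Y box alone. Exact ERSE matches lie between 212 and 47 bases upstream in Calr, Hsp90b1 and Hspa5.

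Levels of the 10 genes spanned more than an order of magnitude. Calr was the most abundant in the libraries labelled young, at 550 ± 16.4 FPKM (SD, n = 3 per group throughout), followed by Hsp90b1, Hspa5 and Pdia4, and Ern1 was the least abundant, at 9.62 ± 0.439 FPKM. In that group, neighbours in the order were apart in every library except Calr and Hsp90b1, whose values overlapped. In the libraries labelled aged, Calr stood above Hsp90b1 without overlap, while Herpud1 overlapped with Dnajb9 and Atf6 with Ern1. The abundant chaperones Hspa5, Hsp90b1, Calr and Pdia4 together made up 91.3% to 92.7% of the summed FPKM of the 10 genes in every library.

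**Figure D2:**
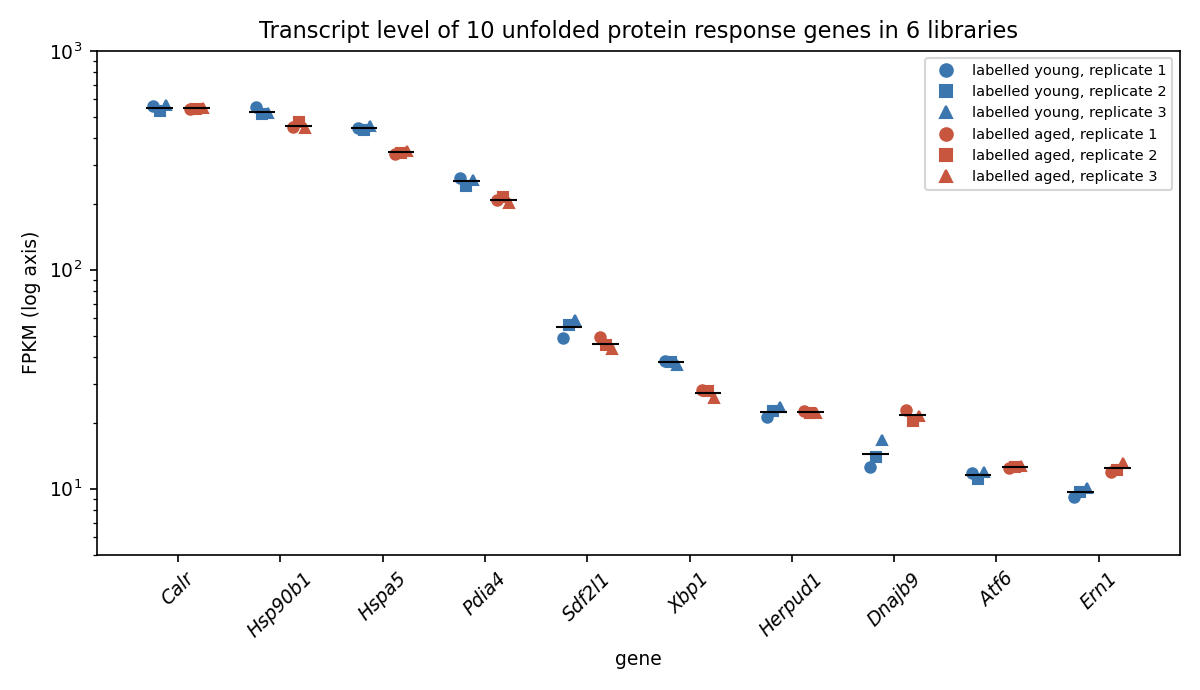
FPKM of the 10 genes on a log axis, with 1 point per library and a bar at the mean of each group of 3. Calr, Hsp90b1, Hspa5 and Pdia4 lie above 200 FPKM in all 6 libraries, and the other 6 genes below 60 FPKM.

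Among the lumenal chaperones, Hspa5, Pdia4, Hsp90b1 and Sdf2l1 were lower in the libraries labelled aged and Calr did not pass the test. Hspa5, which encodes BiP, the Hsp70 chaperone that holds the sensors inactive (chromosome 2, 34771970 to 34777547, plus strand, mm10), stood at 442, 435 and 454 FPKM in the libraries labelled young and at 339, 342 and 349.9 FPKM in those labelled aged. All 3 libraries labelled aged lay below all 3 labelled young. The mean was 22.5% lower, at 343 ± 5.71 against 443 ± 9.59 FPKM (log2 change -0.37 ± 0.04 SE on the log2(FPKM + 1) scale, limma adjusted p = 0.000165). With quantile normalization the value was -0.088 and the call was lost (limma adjusted p = 0.118, range over all alternatives 2.17e-08 to 0.118). In bulk RNA, fewer cells of a type and less RNA per cell cannot be told apart.

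Hsp90b1, which encodes GRP94, the Hsp90 of this compartment (chromosome 10, 86690209 to 86705509, minus strand), stood at 551, 515 and 517 FPKM in the libraries labelled young and at 447, 474 and 444 FPKM in those labelled aged. The groups did not overlap, with 474 FPKM the highest labelled aged and 515 FPKM the lowest labelled young. The mean was 13.8% lower (log2 change -0.21 ± 0.05 SE, limma adjusted p = 0.00674). That call was lost with quantile normalization, where the value was -0.013 (limma adjusted p = 0.862), and without both libraries holding kidney transcripts (-0.18, limma adjusted p = 0.0977), with a range over all alternatives of 0.000234 to 0.862. The transcripts Gm15344 and 1810014B01Rik overlap Hsp90b1 in the table, the latter on the opposite strand, at no more than 8.0 and 3.61 FPKM. The sources used here do not give whether counting used strand, so their reads cannot be fully told apart from those of Hsp90b1.

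Pdia4, which encodes ERp72, a protein disulfide isomerase that partners BiP (chromosome 6, 47796141 to 47813430, minus strand), stood at 262, 241 and 256 FPKM in the libraries labelled young and at 208, 214 and 202 FPKM in those labelled aged. The groups did not overlap. The mean was 17.8% lower (log2 change -0.28 ± 0.04 SE, limma adjusted p = 0.00140). Sdf2l1, which encodes a small partner of BiP and its J proteins (chromosome 16, 17130138 to 17132383, minus strand), stood at 49.0, 56.1 and 58.7 FPKM in the libraries labelled young and at 49.2, 45.2 and 43.6 FPKM in those labelled aged. Here the groups overlapped, because the lowest library labelled young lay just under the highest labelled aged. Sdf2l1 was 15.8% lower on average (log2 change -0.24 ± 0.08 SE, limma adjusted p = 0.0293), the weakest of the 7 calls. It was lost without young replicate 2 (limma adjusted p = 0.0872), young replicate 3 (0.0883), aged replicate 2 (0.0814) or aged replicate 3 (0.0876), within a range of 0.00605 to 0.0883 over all alternatives.

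Calr, which encodes calreticulin, a calcium-binding lectin chaperone of glycoproteins (chromosome 8, 84841850 to 84846934, minus strand), stood at 557, 531 and 562 FPKM in the libraries labelled young and at 544, 544 and 549 FPKM in those labelled aged. The libraries labelled aged all fell inside the range of those labelled young. The log2 fold change was -0.012 ± 0.04 SE (limma adjusted p = 0.813), and its 95% interval, -0.10 to 0.08, corresponds to -6.91% to 5.70%. The sign was positive with median centring, TPM, quantile normalization, voom, without young replicate 3 and without both libraries holding kidney transcripts, and with quantile normalization Calr was called higher, at 0.17 (limma adjusted p = 0.00613, range over all alternatives 0.00613 to 0.959).

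The sensor Ern1 rose while its substrate Xbp1 fell, and Atf6 did not pass the test. Ern1, which encodes the kinase and RNase IRE1 alpha (chromosome 11, 106394650 to 106487852, minus strand), stood at 9.15, 9.68 and 10.02 FPKM in the libraries labelled young and at 11.9, 12.2 and 13.0 FPKM in those labelled aged. The groups did not overlap. The mean rose by 28.7% (log2 change 0.33 ± 0.05 SE, limma adjusted p = 0.00124). Ern1 was called in the same direction under all 17 alternatives.

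Xbp1, which encodes the transcription factor activated by IRE1 splicing (chromosome 11, 5520659 to 5525893, plus strand), stood at 38.3, 38.1 and 36.7 FPKM in the libraries labelled young and at 28.3, 28.0 and 26.0 FPKM in those labelled aged. No library labelled aged reached the lowest labelled young. The mean was 27.3% lower, the largest fall among the 10 genes (log2 change -0.45 ± 0.04 SE, limma adjusted p = 0.000136), and the call held under all 17 alternatives. The values count Xbp1 as a whole gene, so spliced and unspliced mRNA were not analysed here.

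Atf6, which encodes the sensor cleaved in the Golgi (chromosome 1, 170704674 to 170867771, minus strand), stood at 11.7, 11.0 and 11.9 FPKM in the libraries labelled young and at 12.4, 12.5 and 12.6 FPKM in those labelled aged. Every library labelled aged lay above every one labelled young, by a small step. The log2 fold change of 0.11 ± 0.04 SE narrowly missed the threshold (limma adjusted p = 0.0535). Atf6 was called higher with median centring (0.17, limma adjusted p = 0.00871), TPM (0.14, 0.0350), quantile normalization (0.14, 0.0179) and voom on recovered reads (0.15, 0.00700), within a range of 0.00700 to 0.163.

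Of the degradation genes, Dnajb9 rose and Herpud1 did not pass the test. Dnajb9, which encodes ERdj4, a J protein partner of BiP that represses IRE1 and serves degradation (chromosome 12, 44205559 to 44210326, minus strand), stood at 12.6, 13.9 and 16.6 FPKM in the libraries labelled young and at 22.7, 20.4 and 21.5 FPKM in those labelled aged. The groups did not overlap, and the spread was widest among the libraries labelled young. The mean rose 1.5-fold, the largest change among the 10 genes (log2 change 0.56 ± 0.10 SE, limma adjusted p = 0.00217). All 17 alternatives called Dnajb9 higher, with values from 0.48 to 0.66.

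Herpud1, which encodes a membrane scaffold of the HRD1 ubiquitin ligase complex (chromosome 8, 94386438 to 94395377, plus strand), stood at 21.3, 22.6 and 23.6 FPKM in the libraries labelled young and at 22.7, 22.2 and 22.2 FPKM in those labelled aged. The libraries labelled aged sat within the range of the others. The log2 fold change was -0.0069 ± 0.04 SE (limma adjusted p = 0.903), with a 95% interval of -0.11 to 0.10. Its sign turned with median centring, TPM, voom and without young replicate 3, and none of the alternatives called it.

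**Figure D3:**
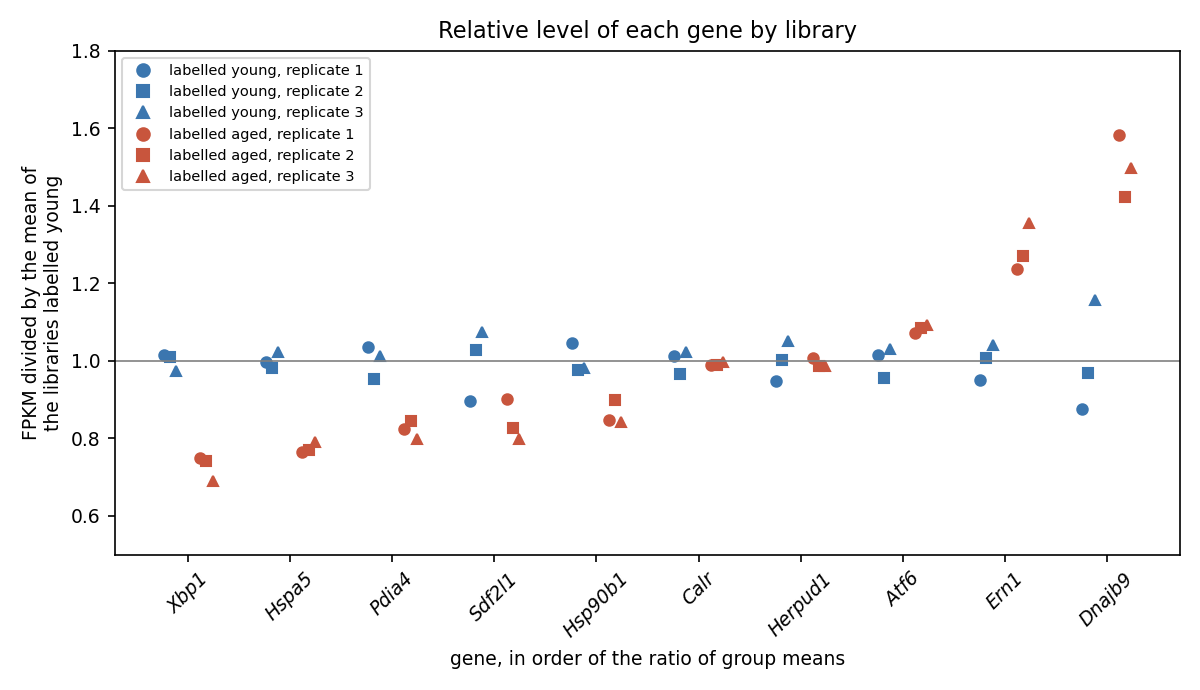
FPKM of each gene divided by its mean over the libraries labelled young, 1 point per library, with genes in order of the ratio of group means. Xbp1, Hspa5, Pdia4 and Hsp90b1 lie below the libraries labelled young in all 3 labelled aged. Ern1, Dnajb9 and Atf6, which did not pass the test, lie above.

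In all, 7 of the 10 genes passed the test, 2 higher and 5 lower, against 60.0% of all 15197 tested genes (27.7% higher and 32.3% lower) and 72.9% of tested genes with a mean of at least 10 FPKM. The groups did not overlap for 7 of the 10 genes, against 66.9% of all tested genes. The share called is near that background, so the count is not a result about these genes. Their median log2 fold change was -0.11 and the median size, whatever the sign, 0.26, beside -0.03 and 0.28 over all tested genes. The split was 3 higher and 4 lower with median centring and 4 higher and 3 lower with quantile normalization. Without both libraries holding kidney transcripts, 6 were called, 2 higher and 4 lower.

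The other sensors, proteases and transcription factors of the response were mixed. Of 14 genes, 13 were tested, 3 were higher, 5 lower and 5 missed the threshold, with a median log2 fold change of -0.07. The 8 of 13 called are near the 60.0% of all tested genes (27.7% higher and 32.3% lower). With median centring or voom the split was 5 higher and 5 lower, and without both libraries holding kidney transcripts 1 higher and 5 lower. Mbtps1, the Golgi protease that makes the opening cut in ATF6, was 0.641 times its level in the libraries labelled young, at 12.4 ± 0.530 against 19.4 ± 0.978 FPKM (log2 change -0.60 ± 0.05 SE, limma adjusted p = 8.55e-05). Atf6b, the paralogue of Atf6, fell to 17.4 ± 1.5 from 24.1 ± 1.46 FPKM. Creb3l2, a membrane-bound factor of the same kind as ATF6 that serves secretion, fell to 8.61 ± 0.252 from 14.9 ± 0.183 FPKM, and Nfyc, a subunit of NF-Y, fell to 11.0 ± 0.676 from 14.0 ± 0.459 FPKM. Eif2ak3, the gene of PERK, stood at 6.34 ± 0.0723 against 6.72 ± 0.507 FPKM (limma adjusted p = 0.326). The 3 higher genes, named after their values were seen, were Creb3 at 1.20-fold, Rtcb at 1.10-fold and Creb3l3 at 1.76-fold. Creb3l3 did not exceed 1.45 FPKM in any library.

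The genes of the PERK arm, which include the PERK substrate Eif2s1, were more often higher than lower. Of 12 tested, 7 were higher, 4 lower and 1 missed the threshold, with a median log2 fold change of 0.30, where the background is 27.7% higher and 32.3% lower. The 7 include Atf3, which did not exceed 0.918 FPKM in any library. Higher genes outnumbered lower ones in all 17 alternatives. The split narrowed to 5 higher and 4 lower without a filter on low values and without aged replicate 2 or 3. Ddit3, which encodes CHOP, stood at 50.7, 52.5 and 51.7 FPKM in the libraries labelled young and at 101, 101 and 111 FPKM in those labelled aged, a 2.02-fold rise (log2 change 1.0 ± 0.05 SE, limma adjusted p = 8.98e-06). Sesn2, a stress-induced inhibitor of mTORC1 that p53 also induces, rose 2.73-fold to 28.7 ± 0.889 FPKM. Chac1, which degrades glutathione, rose 1.74-fold to 16.3 ± 1.41 FPKM, and Eif2s1, which encodes eIF2 alpha, rose 1.38-fold to 38.9 ± 1.65 FPKM. Atf4, whose protein level is set mainly by translation, stood at 122 ± 7.59 against 125 ± 2.56 FPKM. It did not pass (limma adjusted p = 0.627). The 4 lower genes, named after their values were seen, were Trib3, Ppp1r15b, Atf5 and Asns, at log2 fold changes of -0.36, -0.33, -0.30 and -0.17.

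Other chaperones and cochaperones of the compartment were mostly lower. All 25 were tested, 14 were lower, 4 higher and 7 missed the threshold, with a median log2 fold change of -0.17. Over all tested genes 32.3% were lower and 27.7% higher, and 60.0% were called, or 72.9% of genes averaging 10 FPKM or more, so the 18 of 25 called are near the background in number. Without both libraries holding kidney transcripts 11 were called, 7 lower and 4 higher. Calu (calumenin), a calcium-binding protein of the secretory pathway, stood at 258, 250.6 and 255 FPKM in the libraries labelled young and at 121, 125 and 121 FPKM in those labelled aged, which is 0.481 times as much (log2 change -1.05 ± 0.03 SE, limma adjusted p = 2.67e-06). Serpinh1, the collagen chaperone HSP47, fell to 330 ± 3.82 from 491 ± 12.9 FPKM. Sil1, a nucleotide exchange factor of BiP, fell to 10.5 ± 0.594 from 17.1 ± 0.695 FPKM, and Fkbp2, a peptidyl-prolyl isomerase, fell to 30.1 ± 1.72 from 51.5 ± 1.06 FPKM.

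Hyou1, a large Hsp70-like exchange factor of BiP, was 12.7% lower (limma adjusted p = 0.00307), Manf, a secreted partner of BiP, 12.4% lower (limma adjusted p = 0.00616) and Creld2 9.85% lower (limma adjusted p = 0.00957). Without both libraries holding kidney transcripts their limma adjusted p-values were 0.0705, 0.0510 and 0.0860, the upper ends of their ranges over all alternatives, whose lower ends were 0.000926, 0.00274 and 0.00527. Creld2 was also lost with median centring (limma adjusted p = 0.0850). Canx, which encodes calnexin, the membrane-bound relative of calreticulin, went the other way, at 298, 299.8 and 298 against 254, 244 and 244 FPKM. It rose 1.21-fold (log2 change 0.27 ± 0.03 SE, limma adjusted p = 0.000479). The other 3 higher genes of the list, named after their values were seen, were Dnajb11, a J protein partner of BiP, at 1.44-fold, Uggt1, which tags misfolded glycoproteins for another round of folding, at 1.35-fold, and Dnajc10, a reductase that also binds BiP, at 1.26-fold.

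Disulfide isomerases and oxidation enzymes leaned the same way as Pdia4. All 19 were tested, 11 were lower, 3 higher and 5 missed the threshold, with a median log2 fold change of -0.19. The share called, 14 of 19, is near the 72.9% of genes averaging 10 FPKM or more, beside 60.0% of all tested genes. Over all tested genes 32.3% were lower and 27.7% higher. Ero1l, now called Ero1a, the oxidase that recharges the isomerases, stood at 141, 130 and 104 FPKM in the libraries labelled young and at 51.3, 52.9 and 53.5 FPKM in those labelled aged, 0.421 times as much (log2 change -1.22 ± 0.11 SE, limma adjusted p = 0.000101). Ero1l is also a known hypoxia target. Pdia5 fell to 7.69 ± 0.463 from 15.5 ± 0.603 FPKM, P4hb, which encodes the archetypal isomerase PDI, fell to 458 ± 7.08 from 617 ± 31.3 FPKM, and Pdia6, which attenuates IRE1, was 16.1% lower at 172 ± 3.84 FPKM. Tmx2, a thioredoxin-related membrane protein, rose 1.49-fold to 29.4 ± 0.459 FPKM. The other higher genes, named after their values were seen, were Pdia3 and Selenof. Pdia3, an abundant isomerase, rose to 340 ± 20.2 from 271 ± 1.71 FPKM (limma adjusted p = 0.00127). Selenof rose 1.27-fold to 81.3 ± 3.07 FPKM.

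The machinery of degradation and of entry into the compartment split in both directions. In these lists 18 and 19 genes were called, each of 27 tested. Those counts are near the background of 60.0% of all tested genes, or 72.9% of genes averaging 10 FPKM or more. Over all tested genes 27.7% were higher and 32.3% lower. Of the degradation list, 27 of 28 genes were tested, 10 were lower, 8 higher and 9 missed the threshold, with a median log2 fold change of -0.08. Higher genes outnumbered lower ones in 12 of the 17 alternatives, with 11 higher and 6 lower under median centring and 7 and 5 without both libraries holding kidney transcripts, so the list has no settled balance. Nploc4 and Ufd1, whose products help p97 extract substrates from the membrane, rose 1.36-fold and 1.32-fold, and Ube2g2, a ubiquitin-conjugating enzyme, rose 1.22-fold. Os9, a lectin that hands glycoproteins to the HRD1 complex, fell to 60.8 ± 2.86 from 76.4 ± 1.83 FPKM. In the translocation and N-glycosylation list, 27 of 28 genes were tested, 9 were higher, 10 lower and 8 missed the threshold, with 10 higher and 7 lower under median centring and 7 and 6 without both libraries holding kidney transcripts. Ostc, a subunit of the oligosaccharyltransferase, fell to 38.0 ± 1.13 from 65.9 ± 1.44 FPKM, Stt3b, a catalytic subunit, fell to 52.6 ± 1.99 from 68.2 ± 2.08 FPKM and Ddost, another subunit, fell to 160 ± 4.05 from 201 ± 5.76 FPKM. Ssr3, of the translocon-associated complex, rose 1.27-fold to 91.7 ± 1.73 FPKM.

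**Figure D4:**
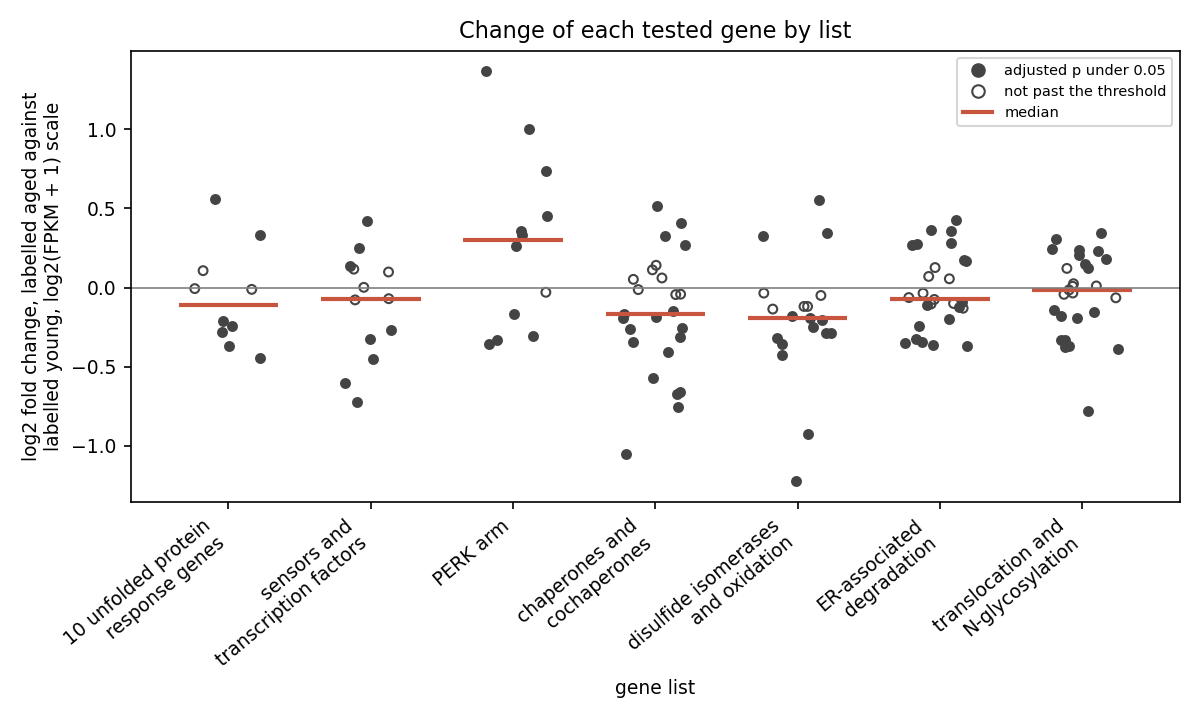
Log2 fold change of each tested gene, labelled aged against labelled young, by gene list. Filled points passed an adjusted p of 0.05 by limma, open points did not, and the red bar is the median, at 0.30 for the PERK arm, -0.17 for chaperones and -0.19 for disulfide isomerases and oxidation.

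The genes carrying an exact ERSE did not share a single direction. Across the 10 genes and the pathway lists, 10 genes had one in a promoter window, of which 6 were lower, 1 higher, 2 not past the threshold and 1 not tested. The lower ones were Hspa5, Hsp90b1, Pdia6, Creld2, Ero1lb (now Ero1b, at 3.46 ± 0.153 against 4.44 ± 0.312 FPKM) and Syvn1, which encodes the ubiquitin ligase HRD1 (9.19 ± 0.307 against 10.1 ± 0.285 FPKM). Canx was the higher one, Calr and Dnajc3 (16.1 ± 1.12 against 14.8 ± 0.50 FPKM) did not pass, and Derl3 stayed under 0.47 FPKM. The shares that background gives are 32.3% lower and 27.7% higher. The calls of Hspa5, Hsp90b1 and Creld2 were each lost under some alternatives. Ero1lb and Syvn1 (limma adjusted p = 0.00635 and 0.0368) were not followed gene by gene over the alternatives, so how firm their calls are is not known. In the 6 lists, in the order above, 11 of 14, 11 of 12, 19 of 25, 17 of 19, 21 of 28 and 21 of 28 genes had a window. The others were not searched. An ERSE-II was held by Herpud1, which did not pass, and by Dnajb11, which was higher at 1.44-fold.

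The genes whose pattern was most like that of Hspa5 over the 6 libraries were Ccdc136, Btd and Rxra, with Pearson's r of 0.9997, 0.9995 and 0.9994 on log2(FPKM + 1) among 5525 genes with a mean of at least 10 FPKM. The 6 points share the split into 2 groups, and 1742 of those genes had r above 0.9, so a high r is common here.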

How the data were processed

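RNA of 6 mouse samples labelled lung was sequenced, 3 labelled young and 3 labelled aged. Per the labels' protocols, HISAT2 2.0.5 aligned the read pairs, to mm10, per the submitters' processing notes. The authors deposited FPKM values for 54532 genes. The sources used here name no read counter, annotation or library size behind these values. Every value above 0, times gene length, was a whole multiple of 1 step per library within a tolerance of 0.01, which gave whole reads. The library size implied by the step lay below the summed reads in every library labelled young and above them in every one labelled aged. The part of this scaling in the results was not tested beyond the alternatives that rescale the values. The 95% intervals come from the limma fit and reflect the spread between libraries.

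Genes with at least 0.5 FPKM in at least 3 libraries were tested, 15197 in all, on log2(FPKM + 1), which understates changes of low genes. A group term was fitted by limma 3.58.1 (R 4.3.3) with a mean-variance trend. P-values were 2-sided and adjusted by Benjamini and Hochberg's method over every tested gene, at 0.05. Fold and percent changes are ratios of mean FPKM. The fit was also run on simulated reads in which few genes changed. Many genes were called in these data, so that run does not show how reliable the calls are. Tables and figures used Python 3.11.15.

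The 10 genes and the lists (6 of the pathway, 4 of markers) were chosen with earlier results of these data known. From each pathway list the text names up to 4 genes with the smallest p whose higher group averages 5 FPKM or more, plus Eif2ak3, Atf4, Ddit3, Canx, Hyou1, Pdia6, Manf and Creld2. Genes are also named for an exact ERSE match in their promoter window. Ddit3 has 2 rows, and the row of ENSMUSG00000025408 was used because the other is at 0. The 17 alternatives were pseudocounts of 0.1 and 0.5, other filters, median centring, TPM, quantile normalization, no trend, voom on recovered reads, a replicate block, leaving out each library, and, chosen after seeing the data, leaving out both libraries with kidney transcripts.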

Additional observations from a re-analysis of the deposited data

How the results depend on the processing

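Ern1, Xbp1, Dnajb9 and Pdia4 kept their direction and their call under all 17 alternatives, with log2 fold changes of 0.30 to 0.40, -0.47 to -0.38, 0.48 to 0.66 and -0.32 to -0.16. The count of the 10 genes called ran from 6 to 8, and the count over all tested genes from 6234 to 9513. Quantile normalization ended the calls of Hspa5 (-0.088) and Hsp90b1 (-0.013) and gave Calr a call at 0.17. Sdf2l1 was lost without a filter on low values (-0.24), with median centring (-0.17), with the replicate block (-0.24) and without some single libraries, over a range of -0.32 to -0.19. Atf6 gained a call at 0.17 with median centring, 0.14 with TPM, 0.14 with quantile normalization and 0.15 with voom. The sign of Calr turned to 0.054 with median centring, 0.016 with TPM and 0.023 with voom, and ran from -0.036 to 0.0044 without single libraries. Herpud1 turned to 0.059, 0.0200 and 0.028 under the same 3 settings and ran from -0.044 to 0.028 without single libraries. Atf4 turned to 0.036 with median centring and 0.0044 with voom, and ran from -0.073 to 0.016 without single libraries. Without both libraries holding kidney transcripts, which leaves 1 library labelled young that is assumed to vary like the others, Hsp90b1 was lost at -0.18, Calr turned to 0.038, Eif2ak3 to 0.0403 and Atf4 to 0.0030, and 11 of the chaperone list were called. The cause of these changes was not tested.

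The labels number the libraries 1 to 3 in each group. Deviations of same-numbered libraries from their group means correlated at 0.0056, -0.0079 and 0.019. Differently numbered pairs ran from -0.040 to 0.036. No pairing by number was seen, but deviations within groups of 3 cannot establish that there is none. Fitting the number as a replicate block left 8441 tested genes and 6 of the 10 genes called, where Sdf2l1 was the one lost (limma adjusted p = 0.0754, range over all alternatives 0.00605 to 0.0883). Each of the 10 genes held at least 553 reads per library. With 3 libraries per group, the 95% interval of the change ran from -6.91% to 5.70% for Calr and from -7.30% to 6.86% for Herpud1.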

Other observations

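The balance among the abundant chaperones differed between the groups. The ratio of Calr to Hspa5, both in FPKM, was 1.26, 1.22 and 1.24 in the libraries labelled young and 1.60, 1.59 and 1.57 in those labelled aged, without overlap. The ratio of Hsp90b1 to Hspa5 was 1.25, 1.18 and 1.14 in the libraries labelled young and 1.32, 1.39 and 1.27 in those labelled aged. A ratio within a library does not depend on the library size used for scaling. It shows unequal change and not which gene moved.

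The summed level of the 10 genes was 1954, 1874 and 1947 FPKM in the libraries labelled young and 1686, 1714 and 1684 FPKM in those labelled aged. That sum follows Calr, Hsp90b1, Hspa5 and Pdia4, while the rises of Ern1 and Dnajb9 add little to it.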
